A study of Homo sapiens with 18 samples.

Results

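The 51 genes described here act in the passage of cells from G1 into S phase and the copying of their DNA, a few of them as inhibitors. They were listed by name, from the textbook roles of their products, with earlier results of these data known. Their RNA was followed after knockdown of EMD, the gene of emerin, a protein of the inner nuclear membrane, in 3 human prostate cancer cell lines. All 51 were found by symbol or gene identifier in each table, among 22360 genes of C4-2B, 25716 of 22Rv1 and 37256 of DU145, and all 51 passed the filter on low counts in each line, among 15801, 16656 and 19377 genes tested. The series asks what a deficit of emerin does in prostate cancer cells with very small nuclei and a shifting lineage.

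RNA was sequenced in 18 libraries, 3 in each of 6 groups: EMD knockdown and control in C4-2B, in 22Rv1 and in DU145. C4-2B is a castration-resistant derivative of the LNCaP line that spreads to bone in mice, 22Rv1 comes from a relapsed prostate cancer xenograft, and DU145 was grown out of a metastasis to the brain. According to the submitters' protocol, knockdown cells received siRNA against EMD and control cells a scrambled siRNA, both delivered with a lipid reagent and removed with the medium after 24 h. Names of DU145 knockdown libraries have the letters sh before EMD, as is usual for short hairpin vectors, so the reagent of that line is not settled by the labels. The medium was RPMI-1640 for C4-2B and 22Rv1 cells, and DMEM for DU145 cells. Each line has its own table and batch label, so line, batch and table cannot be told apart, whereas knockdown and control of a line share both. The libraries are called triplicates without mention of separate cultures, so the p-values measure the spread between these libraries, which may be technical.

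Before S phase, the origin recognition complex, CDC6 and CDT1 load the MCM2 to MCM7 helicase onto DNA, a step called licensing. Kinases then recruit CDC45 and the GINS complex, which turn the loaded helicase into a moving one, and polymerases, the PCNA clamp and enzymes of deoxynucleotide supply do the copying. Much of this set is transcribed in a wave at the end of G1, when cyclin-dependent kinases release E2F factors from the RB protein. In quiescent cells, the related DREAM complex holds many of the same genes down. Since whole cultures were sequenced, fewer cells in S phase and less of these RNAs per cell cannot be told apart.

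The promoters of 6 members are printed, picked by hand from genes with large differences between lines or with moves against most others. Other such genes, CDC45 and DSCC1 among them, are not shown. Each runs over the 250 bases before a transcription start given by RefSeq (GRCh38.p14), in the direction of transcription, in lower case. Of the 2 starts of RRM2 and the 3 of UHRF1 in that promoter table, the one listed first was taken. For ORC1, RRM2 and UHRF1 the start used lies inside the span that RefSeq gives for the whole gene. Capitals mark 3 kinds of motif, looked for on both strands: the E2F types TTTCCCGC, TTTGGCGC, TTTCGCGC, TTTGCCGC and TTTCCCGG, the cell cycle homology types TTTGAA and TTCGAA, and CCAAT, which reads ATTGG on the other strand. CLSPN and ORC1 rose most in 22Rv1, RRM2 was among the largest falls in C4-2B, UHRF1 went opposite ways in 22Rv1 and DU145, MCM6 was the helicase subunit that fell in DU145, and CCNE1 was the member that fell in 22Rv1.
CLSPN (chr1:35769979-35770228, minus strand): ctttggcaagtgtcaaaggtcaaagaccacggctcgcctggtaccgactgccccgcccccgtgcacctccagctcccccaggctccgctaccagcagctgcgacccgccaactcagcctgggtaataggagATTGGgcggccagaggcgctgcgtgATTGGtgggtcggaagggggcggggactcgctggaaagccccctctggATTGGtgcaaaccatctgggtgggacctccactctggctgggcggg
ORC1 (chr1:52404424-52404673, minus strand): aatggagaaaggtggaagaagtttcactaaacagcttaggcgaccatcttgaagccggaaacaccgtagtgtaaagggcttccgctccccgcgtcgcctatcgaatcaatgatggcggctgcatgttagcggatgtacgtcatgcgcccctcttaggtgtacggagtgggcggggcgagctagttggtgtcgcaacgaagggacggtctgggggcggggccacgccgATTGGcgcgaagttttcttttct
RRM2 (chr2:10122489-10122738, plus strand): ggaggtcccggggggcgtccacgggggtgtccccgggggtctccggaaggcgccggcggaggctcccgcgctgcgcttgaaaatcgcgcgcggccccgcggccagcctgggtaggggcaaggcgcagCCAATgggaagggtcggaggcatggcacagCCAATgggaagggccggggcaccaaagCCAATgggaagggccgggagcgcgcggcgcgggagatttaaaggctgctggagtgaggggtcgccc
UHRF1 (chr19:4909251-4909500, plus strand): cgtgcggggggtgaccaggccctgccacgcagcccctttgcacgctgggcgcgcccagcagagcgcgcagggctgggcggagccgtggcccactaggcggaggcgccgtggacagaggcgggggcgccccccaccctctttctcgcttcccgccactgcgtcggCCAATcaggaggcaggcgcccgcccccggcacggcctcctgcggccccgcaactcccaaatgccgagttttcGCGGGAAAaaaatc
MCM6 (chr2:135876444-135876693, minus strand): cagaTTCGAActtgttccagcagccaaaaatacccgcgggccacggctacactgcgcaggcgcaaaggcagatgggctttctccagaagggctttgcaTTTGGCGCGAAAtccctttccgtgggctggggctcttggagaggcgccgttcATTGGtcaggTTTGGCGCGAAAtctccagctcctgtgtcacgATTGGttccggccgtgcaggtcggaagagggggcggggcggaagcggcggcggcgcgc
CCNE1 (chr19:29811741-29811990, plus strand): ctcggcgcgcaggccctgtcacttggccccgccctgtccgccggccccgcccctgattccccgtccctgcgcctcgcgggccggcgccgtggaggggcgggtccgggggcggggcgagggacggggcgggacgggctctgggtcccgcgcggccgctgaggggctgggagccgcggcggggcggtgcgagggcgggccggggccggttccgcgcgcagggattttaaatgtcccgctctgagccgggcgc
CLSPN and RRM2 carried 3 CCAAT motifs each and no E2F-type match in this window. UHRF1 carried 1 E2F-type match, TTTCCCGC read on the other strand, 7 to 14 bases before the start, and 1 CCAAT. MCM6 carried TTTGGCGC at 2 places, each overlapping TTTCGCGC on the other strand, and also 1 TTCGAA and 2 CCAAT. ORC1 carried 1 CCAAT, and CCNE1 none of the motifs. A letter match is a description of the sequence and not a site of binding.

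Of the 51 members 43 had a promoter in the table, and 19 of them (44.2%) held an E2F-type motif before at least 1 of their starts, against 4.89% of 27305 genes. CCAAT stood before 24 of the 43 (55.8%), against 37.0% of all genes. The cell cycle homology types stood before 3 of the 43 (6.98%), against 17.2% of all genes. No promoter entry was matched for MCM4, MCM5, GINS4, POLD3, RPA2, DSCC1, CCNE2 and E2F8.

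C4-2B libraries held 14722733 to 25112148 reads, 22Rv1 libraries 15602874 to 30788078, and DU145 libraries 21024352 to 43311727. The smallest count of any member in any library was 20 reads in C4-2B, 91 in 22Rv1 and 265 in DU145, so counting error was widest in C4-2B. The 51 genes lie on 21 chromosomes. Of them, 24 share annotated exon bases with another gene, 11 over more than 10% of their length. The 11 are TYMS, CCNE2, POLA2, GINS4, MCM2, PRIM1, TIPIN, RRM2, DUT, GINS3 and RFC5. RRM2 shares 20.2% and TIPIN 21% with a gene on the same strand. EMD, on chromosome X from 154379295 to 154381523 (RefSeq, GRCh38.p14), was at 8.49, 10.0 and 6.38 CPM (TMM-scaled CPM, read counts scaled to library size) in C4-2B knockdown libraries and 67.2, 75.1 and 67.3 CPM in controls, a log2 fold change of -3.07 ± 0.11 (SE). In 22Rv1 it was at 21.2, 19.6 and 17.5 CPM after knockdown and 65.4, 69.7 and 60.9 CPM in controls (-1.73 ± 0.07). In DU145 it was at 4.61, 4.77 and 5.01 CPM after knockdown and 45.1, 47.7 and 40.7 CPM in controls (-3.21 ± 0.08). The target thus fell in every line, and least in 22Rv1. The keratin gene KRT8 was present in every line. Of 11 markers of fibroblasts, endothelium and blood cells, 3 were high enough to test in C4-2B, 3 in 22Rv1 and 7 in DU145. In C4-2B 1 of these rose and 2 fell, in 22Rv1 2 fell, and in DU145 2 rose. The summed level of the markers present in a table was 44.5 to 50.6 CPM in C4-2B knockdown libraries and 50.9 to 53.2 CPM in controls. It was 5.88 to 7.71 CPM in 22Rv1 knockdown libraries and 22.8 to 26.7 CPM in controls, and 8.10 to 10.5 CPM in DU145 knockdown libraries and 4.73 to 7.53 CPM in controls. COL1A1, a collagen gene, made up most of it in C4-2B, at 34.0 ± 2.07 CPM after knockdown and 28.7 ± 0.960 CPM in controls, and in 22Rv1, at 6.38 ± 1.01 CPM after knockdown and 23.1 ± 2.07 CPM in controls. Their part in the results was not tested.

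The genes of G1/S and replication fell almost as 1 block in C4-2B and rose almost as 1 block in 22Rv1, and in DU145 they split. In C4-2B 48 of 51 fell, 0 rose and 3 did not pass the test, with a median log2 fold change of -1.21, or 43.2% of the control level. Among all genes tested in C4-2B 22.3% fell and 19.4% rose, with a median of 0.01. Of the 48, 31 fell by at least 2-fold. In 22Rv1 47 of 51 rose, 1 fell and 3 did not pass, with a median of 0.51, or 142% of the control level, against 33.5% risen and 34.3% fallen among all genes (median -0.0038). Only ORC1, CCNE2, CLSPN and UHRF1 rose there by at least 2-fold. In DU145 15 rose, 11 fell and 25 did not pass, with a median of 0.01 and no change of 2-fold or more. This is near the DU145 background, where 24.1% of genes rose and 23.6% fell. A gene was called when its edgeR p-value, after Benjamini-Hochberg adjustment across every gene tested in that line, was under 0.05.

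**Figure D1:**
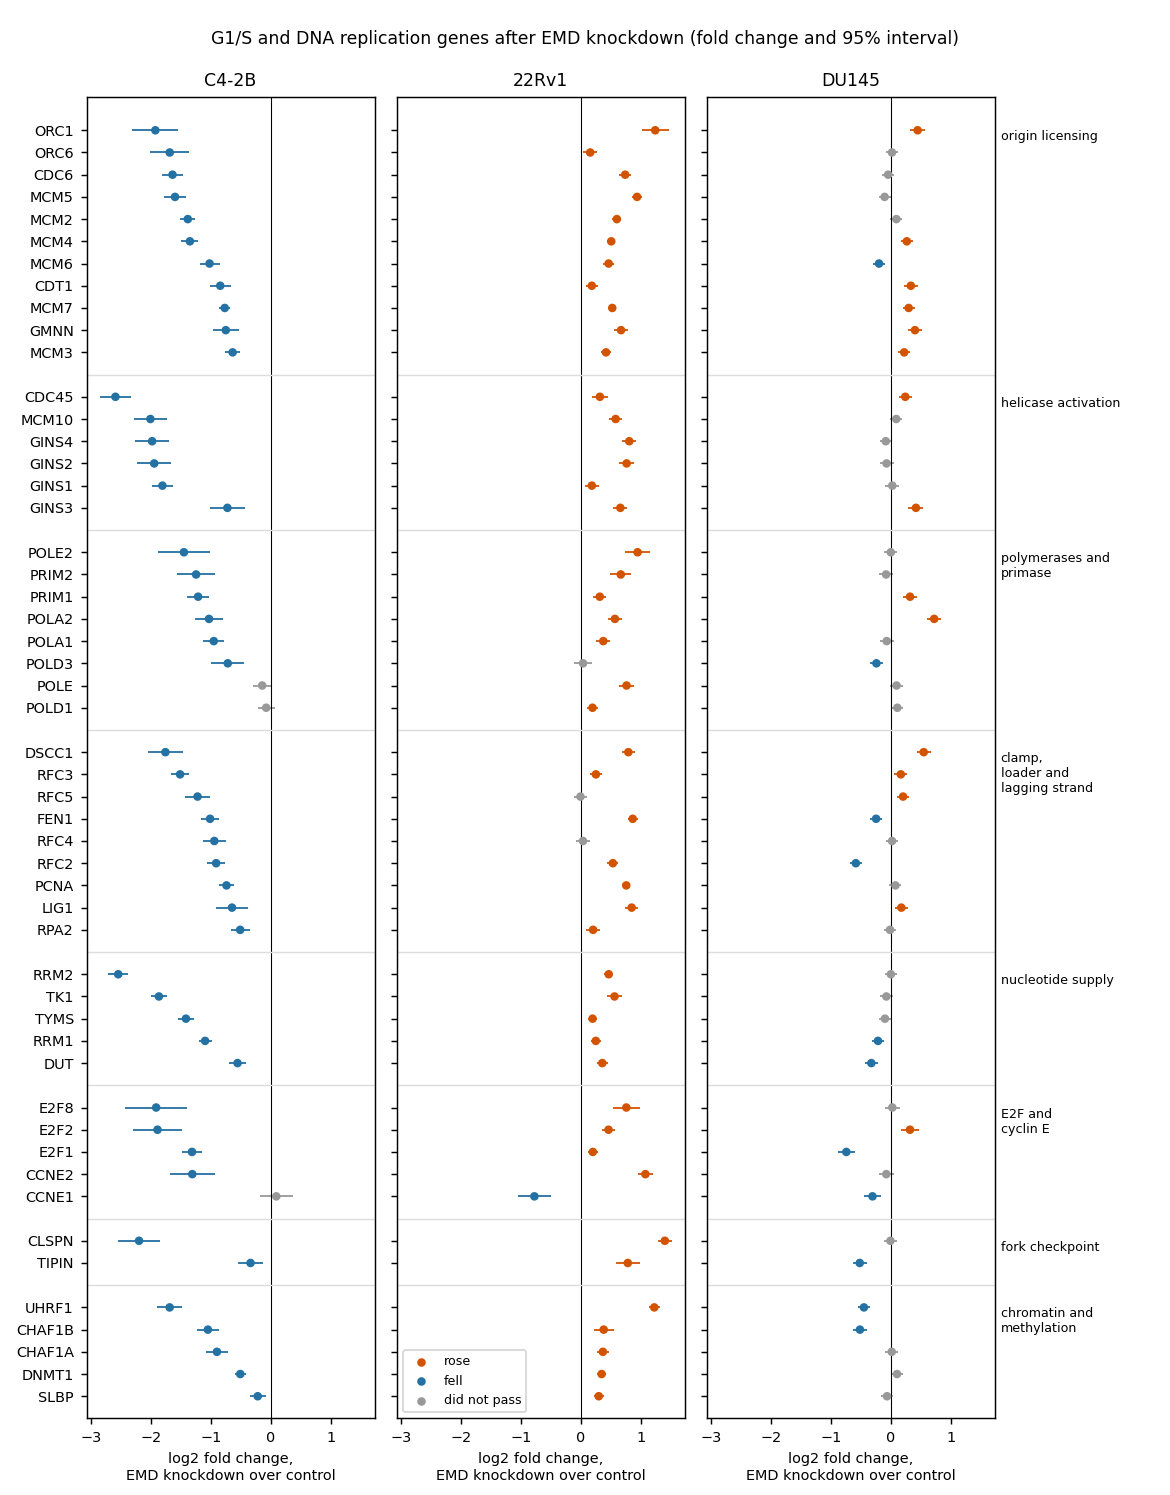
Log2 fold change of each of the 51 genes, EMD knockdown over control, with its 95% interval, in the 3 lines. Genes run down the page by role and, within a role, from the largest fall in C4-2B. Points are coloured by call: 48 fell in C4-2B, 47 rose in 22Rv1, and DU145 lies around 0 with 15 rises and 11 falls.

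Knockdown and control libraries did not overlap for 48 of the 51 members in C4-2B, 48 in 22Rv1 and 30 in DU145, against 50.5%, 71% and 54.8% of all genes tested in these lines. Every member that passed the test was among them, as were 95.9%, 97% and 97.1% of all genes that passed. Together the 51 genes took 0.121 ± 0.00140% of all reads in C4-2B knockdown libraries and 0.234 ± 0.00211% in C4-2B controls (SD, n = 3 per arm). In 22Rv1 they took 0.652 ± 0.00140% after knockdown and 0.485 ± 0.00545% in controls. In DU145 they took 0.639 ± 0.00166% after knockdown and 0.613 ± 0.00296% in controls. The pooled share was thus lower after knockdown in C4-2B, higher in 22Rv1 and slightly higher in DU145, with no overlap of libraries in any line. These shares are of raw library totals, without TMM scaling. On TMM-scaled levels, the median member in DU145 knockdown libraries lay -0.0083, 0.046 and -0.024 log2 units from its control mean. In DU145 controls it lay -0.016, 0.028 and -0.019 from it, so there the arms overlapped.

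**Figure D2:**
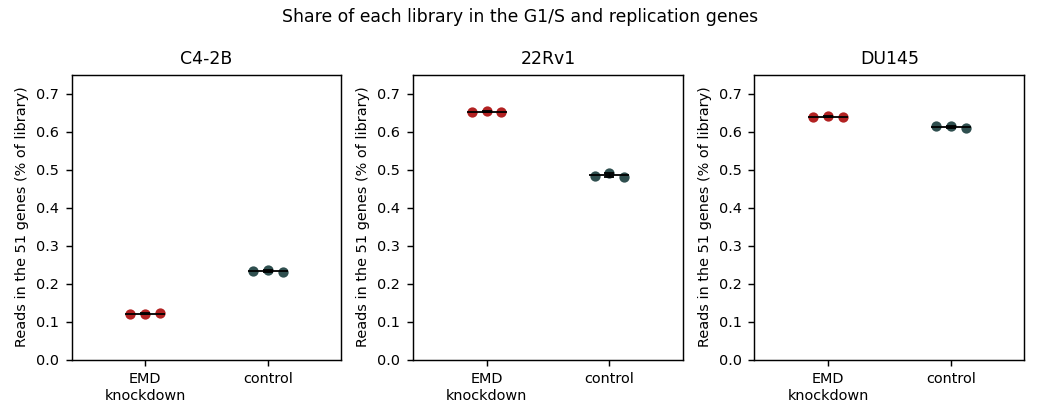
Share of all reads of a library, in percent and without TMM scaling, that fell in the 51 genes, by line and arm. Points are libraries, and bars give the mean and SD of 3. The arms lie apart in each line, at 0.121% and 0.234% for knockdown and control in C4-2B, 0.652% and 0.485% in 22Rv1, and 0.639% and 0.613% in DU145.

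In 22Rv1, and less so in C4-2B, fold changes also depended on the level of a gene. Genes were ranked by mean level into 10 equal groups. For 22Rv1 the median of all genes was -0.43 in the lowest group and between 0.14 and 0.15 in the top 3, where 37 of the 51 members lie. For C4-2B it was 0.21 in the lowest group and -0.033 in the highest, and 9 members lie in the top 3. With the median of its group taken off each gene, the members kept a median of 0.37 in 22Rv1. No member called in any line changed sign, but small rises in 22Rv1 lost most of their size. ORC6 went from 0.16 to 0.0046, GINS1 from 0.18 to 0.032, CDT1 from 0.18 to 0.0403 and E2F1 from 0.20 to 0.058. POLD1 and RPA2 kept 0.053 each, and TYMS 0.054. The rises of ORC1, PRIM2, POLE2, E2F8 and TIPIN grew, that of PRIM2 from 0.67 to 0.73. The centred values were not tested. In C4-2B the share of rises among called genes was 46.6%, and 57.0% when libraries were scaled by their totals. The members stayed at 48 falls and 0 rises with that scaling.

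Licensing genes fell in C4-2B in 11 of 11 cases (median -1.35), rose in 22Rv1 in 11 of 11 (median 0.52), and in DU145 6 rose and 1 fell (median 0.22). ORC1, the cell-cycle-regulated subunit of the origin recognition complex, changed more than any other licensing gene in each line. It was at 2.83, 2.24 and 2.79 CPM in C4-2B knockdown libraries and 9.39, 11.1 and 9.34 CPM in controls, and each knockdown library lay below every control (-1.92 ± 0.19, edgeR adjusted p = 4.90e-09). In 22Rv1 it was at 26.2, 24.5 and 27.1 CPM after knockdown and 13.1, 9.50 and 9.99 CPM in controls (1.24 ± 0.11, edgeR adjusted p = 3.50e-09). In DU145 it was at 36.8, 41.1 and 41.1 CPM after knockdown and 28.4, 29.3 and 29.6 CPM in controls (0.44 ± 0.06, edgeR adjusted p = 3.37e-07). ORC1 therefore rose in 22Rv1 and DU145 and fell in C4-2B. ORC6, another subunit of that complex, also fell in C4-2B (-1.68 ± 0.16) but rose by only 0.16 ± 0.06 in 22Rv1. That small rise passed in 6 of 11 alternative analyses. It did not pass with library totals as scaling (edgeR adjusted p = 0.237) or in the fit of all 18 libraries. Nor did it pass without knockdown library 1, knockdown library 3 or control library 1.

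CDC6, the ATPase that helps place the helicase, was at 21.3, 16.4 and 18.5 CPM in C4-2B knockdown libraries and 58.1, 58.1 and 57.8 CPM in controls (32.1% of control). CDC6 rose in 22Rv1 (0.74 ± 0.05) and gave -0.05 ± 0.05 in DU145, which did not pass. CDT1, which carries the helicase to the origin, and GMNN, whose product geminin binds CDT1 and blocks repeated loading, changed in all 3 lines. CDT1 gave -0.84 ± 0.08 in C4-2B, 0.18 ± 0.05 in 22Rv1 and 0.33 ± 0.06 in DU145. GMNN gave -0.75 ± 0.10 in C4-2B, 0.67 ± 0.06 in 22Rv1 and 0.40 ± 0.05 in DU145. Loading factor and inhibitor thus had the same direction in each line, down in C4-2B and up in 22Rv1 and DU145. The small rise of CDT1 in 22Rv1 did not pass with library totals as scaling (edgeR adjusted p = 0.0547).

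The 6 helicase subunits form a ring with 1 copy of each. In C4-2B they fell by unequal amounts, from -1.60 ± 0.09 for MCM5 and -1.38 ± 0.06 for MCM2 to -0.77 ± 0.04 for MCM7 and -0.63 ± 0.06 for MCM3. In 22Rv1 they lay closer together, from 0.42 ± 0.04 for MCM3 to 0.94 ± 0.04 for MCM5. MCM5 thus moved most in both lines, in opposite directions. It was at 17.7, 15.8 and 13.6 CPM in C4-2B knockdown libraries and 47.2, 50.7 and 44.4 CPM in controls, and at 183, 191 and 181 CPM in 22Rv1 knockdown libraries and 98.5, 97.7 and 93.7 CPM in controls. In DU145 the ring split: MCM3 (0.22 ± 0.05), MCM4 (0.26 ± 0.05) and MCM7 (0.30 ± 0.05) rose, MCM6 fell, and MCM2 (0.09 ± 0.05) and MCM5 (-0.11 ± 0.05) did not pass. MCM6 was at 142, 145 and 138 CPM in DU145 knockdown libraries and 160.5, 165 and 162 CPM in controls (-0.20 ± 0.05, edgeR adjusted p = 0.000639). Its groups lay apart, though by little.

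The factors that activate the loaded helicase had the lowest median of the 8 roles in C4-2B, with 6 of 6 down and -1.96. In 22Rv1 6 of 6 rose (median 0.62), and in DU145 2 rose and 4 did not pass (median 0.05). CDC45, which joins the ring to make the active helicase, was at 4.92, 3.75 and 4.68 CPM in C4-2B knockdown libraries and 27.8, 24.5 and 27.8 CPM in controls. It kept 16.6% of the control level, the lowest share of any member (-2.59 ± 0.13, edgeR adjusted p = 1.13e-14). CDC45 rose in 22Rv1 (0.32 ± 0.07) and in DU145, where it was at 81.1, 86.8 and 76.2 CPM after knockdown and 67.3, 69.9 and 69.4 CPM in controls (0.24 ± 0.05). MCM10, a factor of helicase activation, gave -2.01 ± 0.13 in C4-2B, 0.58 ± 0.05 in 22Rv1 and 0.09 ± 0.05, not past the test, in DU145.

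GINS is a complex of 4 different subunits. In C4-2B GINS1 (-1.81 ± 0.08), GINS2 (-1.94 ± 0.14) and GINS4 (-1.98 ± 0.14) fell to between 25.4% and 28.6% of control, and GINS3 fell to 60.6% (-0.72 ± 0.14). GINS3 shares 10.9% of its annotated exon bases with an antisense gene and GINS4 23.6% with antisense genes, and the strand setting of the counting is not given in the sources used here. In 22Rv1 GINS4 was the largest rise of the role, at 81.1, 77.8 and 89.3 CPM after knockdown and 45.6, 48.9 and 47.6 CPM in controls (0.81 ± 0.06, edgeR adjusted p = 1.25e-10). GINS1 was the smallest, at 0.18 ± 0.06, and did not pass with library totals as scaling (edgeR adjusted p = 0.117) or without knockdown library 2. In DU145 GINS3 rose, with 28.0, 27.5 and 27.0 CPM after knockdown and 20.8, 21.5 and 19.5 CPM in controls (0.42 ± 0.06, edgeR adjusted p = 1.92e-06). The other GINS subunits lay between -0.09 and 0.02 there and did not pass.

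The polymerases split in C4-2B: 6 of 8 genes fell, and the catalytic subunits of the main replicative polymerases did not pass. POLE, the catalytic subunit of polymerase epsilon, was at 56.3, 64.4 and 70.5 CPM in C4-2B knockdown libraries and 76.9, 65.8 and 68.9 CPM in controls (-0.14 ± 0.08, 95% interval -0.30 to 0.02). Those libraries overlapped, and POLE passed only without knockdown library 3 (-0.22, edgeR adjusted p = 0.0259). POLD1, the catalytic subunit of polymerase delta, was at 62.0, 50.8 and 61.2 CPM after knockdown and 57.2, 62.8 and 62.5 CPM in controls (-0.07 ± 0.07, 95% interval -0.22 to 0.07). Other subunits of the same enzymes fell. POLE2, a noncatalytic subunit of polymerase epsilon, was at 2.76, 2.12 and 2.13 CPM after knockdown and 6.68, 6.08 and 6.35 CPM in controls (-1.45 ± 0.21, edgeR adjusted p = 4.82e-06). POLD3, an accessory subunit of polymerase delta, also fell (-0.72 ± 0.13). Within polymerase alpha and its primase, which start each strand, POLA1 (-0.95 ± 0.09), POLA2 (-1.03 ± 0.12), PRIM1 (-1.21 ± 0.09) and PRIM2 (-1.24 ± 0.15) all fell.

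In 22Rv1 7 of 8 polymerase and primase genes rose (median 0.47) and POLD3 did not pass (0.04 ± 0.07). POLE2 again moved most, at 21.4, 19.4 and 22.0 CPM after knockdown and 9.92, 11.5 and 11.3 CPM in controls (0.95 ± 0.10, edgeR adjusted p = 3.59e-08). POLE, which did not pass in C4-2B, rose in 22Rv1, at 196, 205 and 209 CPM after knockdown and 131, 119.6 and 109 CPM in controls (0.76 ± 0.06). In DU145 POLA2 and PRIM1 rose, POLD3 fell, and 5 did not pass. POLA2, the regulatory subunit of polymerase alpha, was at 47.9, 55.2 and 54.0 CPM after knockdown and 32.5, 31.3 and 31.6 CPM in controls. That was the largest rise of any member in DU145 (0.72 ± 0.06, edgeR adjusted p = 4.43e-11). POLA2 shares 35.1% of its annotated exon bases with another gene on the same strand. POLD3 was at 42.6, 45.5 and 44.2 CPM in DU145 knockdown libraries and 52.2, 51.5 and 52.8 CPM in controls (-0.24 ± 0.05, edgeR adjusted p = 0.000270).

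Clamp, clamp loader and lagging-strand genes fell in C4-2B in 9 of 9 cases (median -0.94), rose in 22Rv1 in 7 of 9 (median 0.53), and in DU145 4 rose and 2 fell (median 0.07). DSCC1, part of an alternative clamp loader that also serves sister chromatid cohesion, fell most in C4-2B. It was at 6.74, 4.86 and 6.56 CPM after knockdown and 22.3, 21.5 and 17.5 CPM in controls (-1.76 ± 0.14, edgeR adjusted p = 1.83e-10). DSCC1 rose in 22Rv1 (0.79 ± 0.05) and in DU145, where it was at 46.6, 50.6 and 44.2 CPM after knockdown and 32.4, 33.0 and 31.3 CPM in controls (0.55 ± 0.06, edgeR adjusted p = 8.07e-09). PCNA, the sliding clamp, fell in C4-2B (-0.74 ± 0.06), rose in 22Rv1 (0.76 ± 0.03) and did not pass in DU145 (0.07 ± 0.05).

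FEN1 and LIG1 trim and join the lagging-strand fragments. FEN1, the flap endonuclease, was the largest rise of this role in 22Rv1, at 178, 179 and 183 CPM after knockdown and 103, 98.2 and 95.3 CPM in controls (0.87 ± 0.04, edgeR adjusted p = 2.63e-13). It fell in C4-2B (-1.01 ± 0.07) and in DU145, where it was at 127, 135 and 126 CPM after knockdown and 153, 157 and 150.1 CPM in controls (-0.25 ± 0.05, edgeR adjusted p = 7.62e-05). LIG1, the ligase, gave -0.65 ± 0.13 in C4-2B, 0.85 ± 0.05 in 22Rv1 and 0.17 ± 0.05 in DU145. The call in DU145 was lost without knockdown library 2 (edgeR adjusted p = 0.11) and with DESeq2 in place of edgeR. RPA2, a subunit of the protein that coats single-stranded DNA, fell by the least of this role in C4-2B (-0.51 ± 0.08).

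RFC2 to RFC5 are small subunits of the loader that opens the PCNA ring. All 4 fell in C4-2B, between -1.51 ± 0.07 for RFC3 and -0.91 ± 0.08 for RFC2. In 22Rv1 they did not move as 1 complex. RFC2 rose, at 143, 137 and 140.5 CPM after knockdown and 94.6, 102 and 94.5 CPM in controls (0.53 ± 0.04), and RFC3 rose by less (0.25 ± 0.05). RFC4 (0.04 ± 0.06, 95% interval -0.08 to 0.15) and RFC5 (-0.01 ± 0.05, 95% interval -0.12 to 0.11) did not pass, with overlapping libraries. In DU145 RFC2 fell most after E2F1, at 58.4, 61.1 and 59.8 CPM after knockdown and 90.9, 90.2 and 88.3 CPM in controls (-0.59 ± 0.05, edgeR adjusted p = 5.75e-11). RFC3 (0.16 ± 0.05) and RFC5 (0.20 ± 0.05) rose slightly there, and neither passed without knockdown library 2 (edgeR adjusted p = 0.122 and 0.0527). The rise of RFC3 also did not pass with DESeq2 in place of edgeR or without control library 1. RFC4 was level at 0.02 ± 0.05 and did not pass.

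Genes of deoxynucleotide supply fell in C4-2B in 5 of 5 cases (median -1.41), rose in 22Rv1 in 5 of 5 (median 0.36), and in DU145 2 fell and 3 did not pass (median -0.10). RRM2 is the S-phase-limited small subunit of ribonucleotide reductase, and RRM1 is its large subunit. RRM2 was at 12.1, 12.1 and 14.5 CPM in C4-2B knockdown libraries and 80.5, 73.1 and 72.7 CPM in controls, or 17.1% of control (-2.54 ± 0.08, edgeR adjusted p = 2.67e-18). RRM1 fell by less in C4-2B, to 46.8% of control (-1.09 ± 0.05). RRM2 rose in 22Rv1, at 296, 294 and 284 CPM after knockdown and 212, 211 and 210.1 CPM in controls (0.47 ± 0.03, edgeR adjusted p = 2.86e-10). In DU145 it was at 378, 392 and 368 CPM after knockdown and 379.5, 388 and 371 CPM in controls, with overlapping libraries (-0.0021 ± 0.05, 95% interval -0.10 to 0.09). RRM1 was the subunit that fell in DU145, at 144, 156 and 140.3 CPM after knockdown and 168, 174 and 169 CPM in controls (-0.22 ± 0.05, edgeR adjusted p = 0.000503). RRM2B, an alternative small subunit, is not a member. It went against RRM2 in C4-2B, where it rose (0.53 ± 0.06), and in 22Rv1, where it fell (-0.37 ± 0.04). RRM2B also rose in DU145 (0.49 ± 0.05), where RRM2 did not pass.

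The thymidine side of the pathway followed. TK1, the salvage enzyme thymidine kinase, fell in C4-2B to 27.5% of control (-1.87 ± 0.07) and was the largest rise of the role in 22Rv1. There it was at 185, 189 and 190.4 CPM after knockdown and 125, 141 and 117 CPM in controls (0.56 ± 0.06, edgeR adjusted p = 4.01e-07). TYMS, thymidylate synthase, gave -1.41 ± 0.07 in C4-2B, 0.20 ± 0.04 in 22Rv1 and -0.10 ± 0.05, not past the test, in DU145. TYMS shares 46.6% of its annotated exon bases with the antisense genes ENOSF1 and TYMSOS. DUT, which removes dUTP before it can enter DNA, fell in DU145, at 111, 123 and 109 CPM after knockdown and 141, 147 and 141 CPM in controls (-0.33 ± 0.05, edgeR adjusted p = 3.94e-06). DUT fell in C4-2B (-0.55 ± 0.07) and rose in 22Rv1 (0.36 ± 0.05). Pseudogenes named after DUT, RRM2, TYMS, PCNA, RFC3, RFC5, FEN1 and RPA2 could take or give reads.

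**Figure D3:**
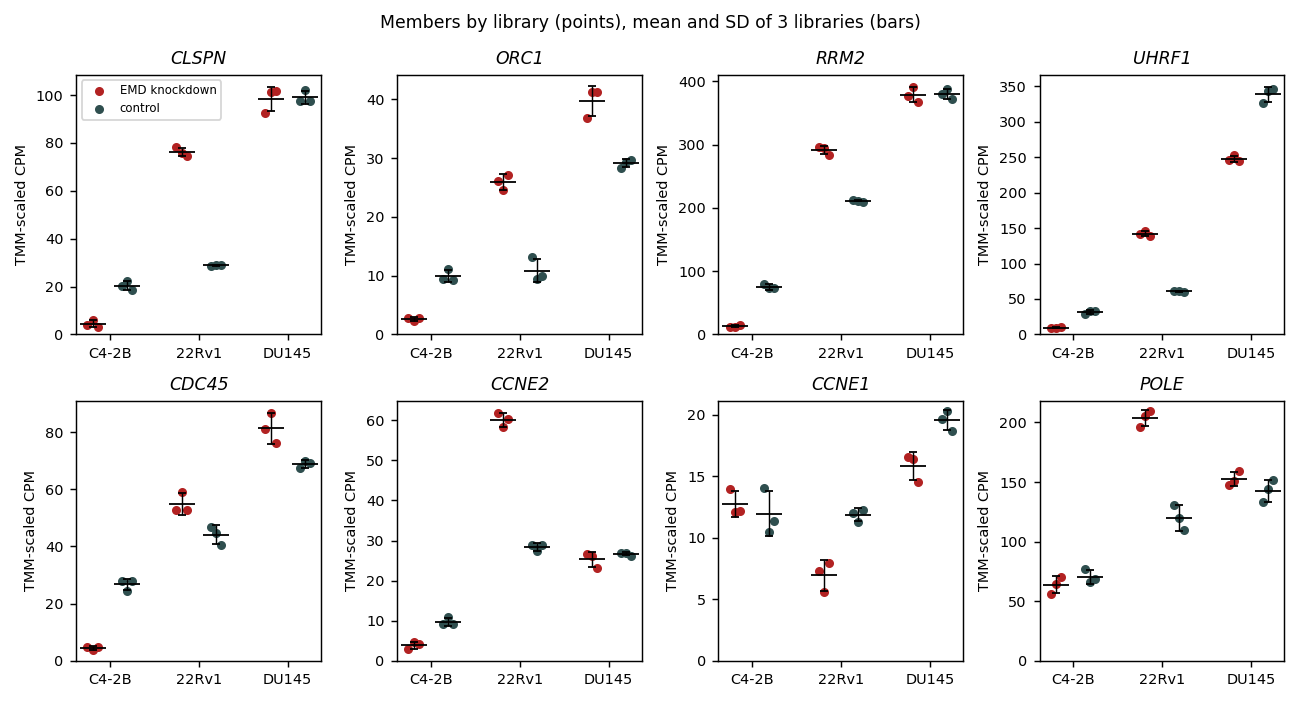
TMM-scaled CPM of 8 members in each library, by line, with EMD knockdown left of control. Points are libraries, and bars give the mean and SD of 3. CLSPN, ORC1, RRM2, UHRF1, CDC45 and CCNE2 lie below control in C4-2B and above it in 22Rv1, CCNE1 lies below control in 22Rv1 and DU145, and POLE overlaps control in C4-2B.

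The E2F factors and E-type cyclins stand at the entry into S phase: cyclin E with CDK2 releases E2F1 and E2F2, which activate the replication genes, and E2F8 represses them later. In C4-2B 4 of 5 fell (median -1.31), in 22Rv1 4 rose and 1 fell (median 0.46), and in DU145 1 rose and 2 fell (median -0.08). E2F8 was at 1.35, 1.34 and 1.94 CPM in C4-2B knockdown libraries and 7.08, 5.50 and 5.01 CPM in controls, the largest fall of the role (-1.91 ± 0.25, edgeR adjusted p = 9.55e-07). E2F1 was at 23.8, 22.2 and 20.0 CPM after knockdown and 51.9, 59.2 and 52.8 CPM in controls of C4-2B (-1.31 ± 0.08), and E2F2 fell too (-1.89 ± 0.20). All 3 rose in 22Rv1, with 0.76 ± 0.11 for E2F8, 0.46 ± 0.05 for E2F2 and 0.20 ± 0.04 for E2F1.

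In DU145 the activators went apart. E2F1 was at 46.5, 50.7 and 40.7 CPM after knockdown and 75.4, 80.1 and 75.1 CPM in controls, the largest fall of any member in that line (-0.75 ± 0.07, edgeR adjusted p = 1.78e-08). E2F2 rose, at 16.6, 18.0 and 17.9 CPM after knockdown and 12.6, 14.5 and 14.7 CPM in controls (0.32 ± 0.07, edgeR adjusted p = 0.000665). E2F8 gave 0.02 ± 0.06 and did not pass.

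The E-type cyclin genes CCNE1 and CCNE2 did not move together. CCNE2 fell in C4-2B (-1.31 ± 0.18) and rose in 22Rv1, at 61.8, 58.3 and 60.3 CPM after knockdown and 29.0, 27.3 and 29.0 CPM in controls (1.08 ± 0.06, edgeR adjusted p = 2.19e-12). CCNE1 was the member of 22Rv1 that fell, at 7.30, 5.57 and 7.95 CPM after knockdown and 12.0, 11.3 and 12.3 CPM in controls (-0.77 ± 0.13, edgeR adjusted p = 2.17e-05). In C4-2B CCNE1 was at 14.0, 12.1 and 12.2 CPM after knockdown and 14.0, 10.5 and 11.4 CPM in controls, with overlapping libraries (0.09 ± 0.13, 95% interval -0.18 to 0.37). In DU145 CCNE1 was at 16.5, 16.4 and 14.5 CPM after knockdown and 19.7, 20.3 and 18.7 CPM in controls (-0.31 ± 0.07, edgeR adjusted p = 0.000533), while CCNE2 gave -0.08 ± 0.06 and did not pass. CCNE2 shares 37.1% of its annotated exon bases with antisense genes, INTS8 among them, and CCNE1 shares none.

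CLSPN and TIPIN serve the checkpoint that steadies stalled forks. CLSPN, whose product claspin relays the signal to the kinase CHK1, gave the largest contrast of any member. It was at 3.91, 6.04 and 3.22 CPM in C4-2B knockdown libraries and 20.4, 22.2 and 18.5 CPM in controls (-2.20 ± 0.17, edgeR adjusted p = 1.21e-09). In 22Rv1 it was at 78.1, 75.9 and 74.6 CPM after knockdown and 28.6, 29.1 and 28.9 CPM in controls (1.40 ± 0.05, edgeR adjusted p = 1.03e-14). CLSPN thus fell to 21.8% of control in C4-2B and stood at 264% of control in 22Rv1. In DU145 it was at 92.6, 101 and 102 CPM after knockdown and 97.4, 102 and 97.5 CPM in controls and did not pass (-0.01 ± 0.05). TIPIN, a fork protection factor that partners TIMELESS, fell slightly in C4-2B (-0.34 ± 0.10) and rose in 22Rv1, at 23.8, 23.4 and 21.6 CPM after knockdown and 11.8, 14.0 and 14.3 CPM in controls (0.78 ± 0.09). In DU145 TIPIN fell, at 29.3, 29.6 and 29.2 CPM after knockdown and 44.0, 42.2 and 40.5 CPM in controls (-0.52 ± 0.06, edgeR adjusted p = 8.07e-09).

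Genes that rebuild chromatin and DNA methylation behind the fork fell in C4-2B in 5 of 5 cases (median -0.90), rose in 22Rv1 in 5 of 5 (median 0.37), and in DU145 2 fell and 3 did not pass (median -0.07). UHRF1 brings the methyltransferase DNMT1 to newly copied DNA. It was at 9.30, 9.11 and 10.9 CPM in C4-2B knockdown libraries and 28.3, 32.7 and 32.9 CPM in controls (-1.69 ± 0.10, edgeR adjusted p = 9.39e-13). In 22Rv1 it was at 141, 146 and 139 CPM after knockdown and 61.7, 61.0 and 59.3 CPM in controls (1.23 ± 0.04, edgeR adjusted p = 3.21e-15). In DU145 it fell, at 246, 253 and 245 CPM after knockdown and 326, 344 and 346 CPM in controls (-0.45 ± 0.05, edgeR adjusted p = 5.37e-09). UHRF1 therefore fell in C4-2B and DU145 and rose in 22Rv1. DNMT1 moved less, with -0.51 ± 0.05 in C4-2B, 0.35 ± 0.04 in 22Rv1 and 0.10 ± 0.05, not past the test, in DU145.

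CHAF1A and CHAF1B are subunits of CAF-1, which places histones on new DNA. Both fell in C4-2B (-0.90 ± 0.09 for CHAF1A and -1.05 ± 0.09 for CHAF1B) and both rose in 22Rv1 (0.37 ± 0.05 and 0.38 ± 0.08). In DU145 they parted: CHAF1B was at 37.3, 41.3 and 38.1 CPM after knockdown and 54.4, 56.5 and 55.9 CPM in controls (-0.52 ± 0.05, edgeR adjusted p = 5.83e-09), and CHAF1A did not pass (0.01 ± 0.05). SLBP, which processes histone mRNA, gave the smallest called fall in C4-2B (-0.22 ± 0.07) and did not pass there without control library 3 (edgeR adjusted p = 0.0585).

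The responses of the lines were compared directly, as the log2 fold change of 1 line less that of another, in 1 edgeR fit of all 18 libraries on the 17152 genes tested there. Between C4-2B and 22Rv1 all 51 members differed, 50 of them lower in C4-2B and CCNE1 higher, with a median difference of -1.48. Of all genes, 56.1% differed in this contrast. The largest differences among members that moved in opposite directions were those of CLSPN (-3.54 ± 0.14, edgeR adjusted p = 1.14e-18), ORC1 (-3.12 ± 0.18, 2.59e-16) and RRM2 (-2.96 ± 0.07, 2.31e-25). CCNE1 gave 0.92 ± 0.17 (edgeR adjusted p = 2.08e-05). Even POLE and POLD1, which had not passed in C4-2B, differed, with -0.85 ± 0.11 for POLE and -0.22 ± 0.08 for POLD1.

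Between C4-2B and DU145 48 members were lower in C4-2B, CCNE1 was higher, and POLE and TIPIN did not pass, with a median difference of -1.18 and a background of 45.7% of all genes. CDC45 differed most among members that moved in opposite directions (-2.85 ± 0.12, edgeR adjusted p = 1.71e-19), followed by ORC1 (-2.39 ± 0.17, 1.43e-13) and DSCC1 (-2.31 ± 0.12, 9.47e-17). Between 22Rv1 and DU145 35 members were higher in 22Rv1, 4 were lower and 12 did not pass, with a median of 0.41, where 55.6% of all genes differed. Among the members that moved in opposite directions there, UHRF1 (1.61 ± 0.06, edgeR adjusted p = 2.92e-20), TIPIN (1.24 ± 0.10, 3.68e-12) and RFC2 (1.06 ± 0.07, 5.33e-15) differed most. CLSPN (1.35 ± 0.10) and CCNE2 (1.09 ± 0.11), which did not pass in DU145, differed by more than RFC2. These 3 contrasts share their libraries pairwise and are not independent of one another.

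Counting calls within the lines, 45 of 51 members fell in C4-2B and rose in 22Rv1, against 12.2% of the 13078 genes tested in all 3 lines. The 6 others were CCNE1, POLE and POLD1, which had not passed in C4-2B, and POLD3, RFC4 and RFC5, which had not passed in 22Rv1. In DU145 22 of the 45 did not pass, 14 rose and 9 fell, and of all 1597 genes with that pattern 35.6% did not pass, 37.1% rose and 27.4% fell. The 9 were MCM6, RFC2, FEN1, RRM1, DUT, E2F1, TIPIN, CHAF1B and UHRF1.

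Replication genes outside the 51 gave the same order of lines, with medians closer to 0 than those of the 51 in C4-2B and 22Rv1 but not in DU145. Of 35 such genes, in C4-2B 1 rose and 25 fell (median -0.64), in 22Rv1 29 rose and 3 fell (median 0.36), and in DU145 14 rose and 7 fell (median 0.08). ASF1B, a histone chaperone that works with CAF-1, was at 6.46 ± 0.871 CPM in C4-2B knockdown libraries and 32.5 ± 1.74 CPM in controls (-2.32 ± 0.11), and rose in 22Rv1 (0.59 ± 0.05). TICRR, which helps load CDC45, fell in C4-2B (-1.91 ± 0.13), rose in 22Rv1 (0.59 ± 0.08) and fell in DU145 (-0.51 ± 0.06). Of 4 other subunits of the origin complex, ORC3 fell in C4-2B (-0.48 ± 0.16), and ORC2, ORC4 and ORC5 did not pass, with -0.12, 0.07 and -0.05. All 4 rose in 22Rv1, between 0.21 for ORC4 and 0.41 for ORC5.

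Mitosis genes, which peak later in the cycle, had a lower median than the replication genes in C4-2B. All 25 fell there (median -2.18), against 21 risen and 1 fallen in 22Rv1 (median 0.49) and 14 risen and 5 fallen in DU145 (median 0.13). CENPE, a kinetochore motor, was at 8.05 ± 0.765 CPM in C4-2B knockdown libraries and 47.8 ± 2.39 CPM in controls (-2.56 ± 0.09), and rose in 22Rv1 (1.18 ± 0.05). Whether the lists differ in size of change was not tested.

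Of the genes that control the G1/S step from upstream, 27 of 28 were tested in C4-2B, where 2 rose and 13 fell (median -0.25). In 22Rv1 17 of 27 rose and 7 fell (median 0.25), and in DU145 9 of 28 rose and 7 fell (median 0.01). The CDK inhibitor gene CDKN1A, which encodes p21, rose in C4-2B, at 588 ± 14.4 CPM after knockdown and 233 ± 1.91 CPM in controls (1.34 ± 0.04). It fell in 22Rv1 (-0.86 ± 0.04) and in DU145, at 24.0 ± 2.02 CPM after knockdown and 64.7 ± 4.86 CPM in controls (-1.44 ± 0.07). CDKN1B, which encodes the inhibitor p27, did not pass in C4-2B (-0.01 ± 0.06) and rose in 22Rv1 (1.10 ± 0.04), together with the replication genes. MYBL2, itself an E2F target that activates later genes, fell in C4-2B, at 17.4 ± 1.36 CPM after knockdown and 117 ± 3.49 CPM in controls (-2.75 ± 0.07). MYBL2 rose in 22Rv1 (0.48 ± 0.04) and fell in DU145 (-0.70 ± 0.12). RB1, whose product can act as a brake on E2F, fell slightly in C4-2B (-0.15 ± 0.06), rose in 22Rv1 (0.65 ± 0.05) and fell in DU145 (-0.34 ± 0.05). These RNA levels do not show whether a line makes a working RB protein, which was not tested. CDK2, the partner of cyclin E, fell in C4-2B (-0.73 ± 0.08), rose in 22Rv1 (0.28 ± 0.04) and gave 0.03 ± 0.05 in DU145.

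**Figure D4:**
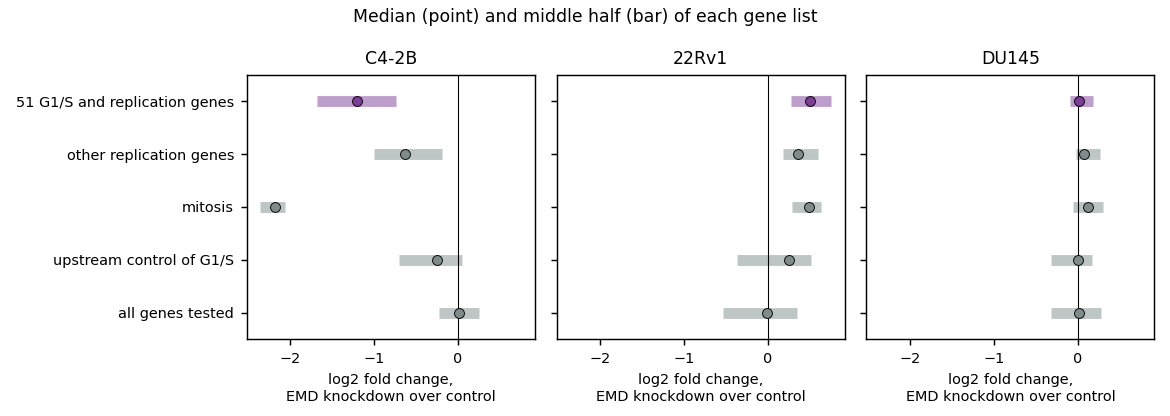
Median log2 fold change, EMD knockdown over control, of the 51 genes, of 3 related lists and of all genes tested, by line. Points are medians and bars run from the lower to the upper quartile of the genes. In C4-2B the 51 genes (median -1.21) lie between mitosis genes (-2.18) and other replication genes (-0.64), in 22Rv1 they lie near mitosis genes (0.51 and 0.49), and in DU145 the list medians lie between 0.01 and 0.13.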

How the data were processed

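For each line the authors deposited a table of expected counts, all of them whole numbers. The submitters' processing notes name STAR, RSEM 1.3.1 and GRCh38. The rounding step, annotation release and strand setting are not given in the sources used here. Spike-in entries and second copies of pseudoautosomal genes in DU145 were left out. Each line was fitted on its own with edgeR 4.0.16 in R 4.3.3: filterByExpr at a count of 10 and a total of 15, TMM scaling, and a robust quasi-likelihood F test. A call needed a Benjamini-Hochberg adjusted p, across every gene tested in that line, under 0.05. Intervals of 95% use the t quantile of that test. Levels are TMM-scaled CPM and errors of fold changes are SE. Differences between lines came from 1 edgeR fit of 18 libraries on genes present in all 3 tables. Scripts were tested on simulated data. Alternatives were library totals, DESeq2 1.42.0, no filter, 1 fit of all libraries, a replicate block, each library left out, and centring on genes of like level. The members and lists were chosen with earlier results of these data known. Full statistics went to the largest called change of each role in each line, to calls against most members, and to the largest opposite pairs; other values named were chosen after they were seen. Promoters come from RefSeq, exon overlaps from GENCODE.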

Additional observations from a re-analysis of the deposited data

Results flagged for a closer look

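The response to EMD knockdown differed between lines for most members, by a test of the difference itself in 1 edgeR fit. All 51 differed between C4-2B and 22Rv1, 49 between C4-2B and DU145, and 39 between 22Rv1 and DU145. Among all 17152 genes tested in that fit, 56.1%, 45.7% and 55.6% differed in the same contrasts. Of single members, CLSPN (-3.54), ORC1 (-3.12) and RRM2 (-2.96) differed most between C4-2B and 22Rv1 among those that moved in opposite directions. CDC45 (-2.85), ORC1 (-2.39) and DSCC1 (-2.31) did so between C4-2B and DU145, and UHRF1 (1.61), TIPIN (1.24) and RFC2 (1.06) between 22Rv1 and DU145. CCNE1 was the member that was higher in C4-2B, with 0.92 for C4-2B less 22Rv1 and 0.39 for C4-2B less DU145. CCNE1 was also lower in 22Rv1 than in DU145 (-0.53), as were CDT1 (-0.21), POLA2 (-0.21) and RFC5 (-0.27). In these differences the line cannot be told apart from its batch label and table, nor DU145 from its medium and possibly its reagent. The log2 fold change of EMD was -3.07 ± 0.11 in C4-2B, -1.73 ± 0.07 in 22Rv1 and -3.21 ± 0.08 in DU145, and its part in them was not tested.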

How the results depend on the processing

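Of the 48 called members 47 kept call and direction in C4-2B over 11 alternatives, 44 of 48 in 22Rv1 and 23 of 26 in DU145. The calls lost at least once were SLBP in C4-2B, ORC6, CDT1, GINS1 and RPA2 in 22Rv1, and RFC3, RFC5 and LIG1 in DU145. With library totals the median of the members was -1.16 in C4-2B, 0.43 in 22Rv1 and 0.058 in DU145. It was 0.46 in 22Rv1 in the fit of all libraries. Centred on genes of like level it was 0.37 in 22Rv1 and -0.0036 in DU145. With 1 library left out it ran from -1.21 to -1.11 in C4-2B. For 22Rv1 the same range was 0.49 to 0.52, and for DU145 -0.029 to 0.058, where the count of rises ran from 12 without knockdown 2 to 20 without knockdown 3. The median of DU145 thus has no settled sign, and the cause was not tested.

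No called member changed sign, though centring took most of the size from small rises in 22Rv1, such as those of ORC6 and GINS1. Of members that had not passed, 1 changed sign in C4-2B, 3 in 22Rv1 and 11 of 25 in DU145. In 22Rv1 POLD3 gave -0.042 with library totals, -0.0087 in the fit of all libraries, -0.028 centred, and -0.023 to 0.10 with 1 library left out. RFC4 gave -0.044 with library totals, -0.010 in the fit of all libraries, -0.12 centred, and -0.014 to 0.077 with 1 left out. With 1 left out RFC5 ran from -0.069 to 0.019, and POLD1 in C4-2B from -0.12 to 0.013. In DU145 8 members that had not passed passed in at least 1 alternative.

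Same-numbered libraries showed no visible shared deviation in C4-2B, where their deviations correlated at -0.0401, 0.00786 and 0.0182. Nor did they show one in 22Rv1, at 0.0285, -0.0136 and -0.0184. In DU145 they correlated at 0.128, 0.294 and 0.0354, and libraries of unlike number at -0.233 to 0.141. Such correlations cannot tell whether libraries were prepared as pairs. A pairing is therefore not settled in any line, and the main fit did not use one. With a replicate block 48 members fell in C4-2B, 47 rose and 1 fell in 22Rv1, and 19 rose and 13 fell in DU145. The block gave 51, 49 and 40 members differing between lines and 6623, 11146 and 9860 genes called in C4-2B, 22Rv1 and DU145, against 6584, 11288 and 9232 without it.

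With 20 reads as the lowest count, small changes in C4-2B have the widest error, and replicate spread adds to counting error.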
